A study of Homo sapiens with 24 samples.

Results

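The genes described here are 10 members of the matrix metalloproteinase (MMP) system: the collagenases MMP1 and MMP13, the stromelysins MMP3 and MMP10, the matrilysin MMP7, the gelatinase MMP9, the membrane-type enzyme MMP14, and the tissue inhibitors of metalloproteinases TIMP1, TIMP2 and TIMP3. They were matched by symbol, and all 10 were found among the 78724 gene IDs of each count table. RNA sequencing covered 2 biliary tract cancer cell lines. HuCCT1, from an intrahepatic cholangiocarcinoma, was grown in RPMI-1640 with serum, and OCUG-1, from a gallbladder cancer, was grown in DMEM with serum. Each line was kept for 72 h in 1 of 4 arms: DMSO vehicle alone, sorafenib at 1.25 µM, sorafenib at 10 µM, and a combination of 1.25 µM sorafenib and 1 µM IACS-010759. Sorafenib inhibits RAF, VEGF receptor and other kinases, and IACS-010759 inhibits complex I of the mitochondrial respiratory chain. Each of the 8 groups held 3 independent biological replicates, which gives 24 libraries. IACS-010759 was not measured alone, so its values are always those of adding it to 1.25 µM sorafenib. The lines also differ in their medium, and 1 line stands for each tumour type.

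MMPs are zinc endopeptidases that are made as inactive proenzymes. They are secreted, or in the case of MMP14 held in the plasma membrane. Once their propeptide is removed they cut collagens, laminins, fibronectin and many cell surface proteins. TIMPs bind the active enzymes and block them, and MMP14 together with TIMP2 also forms the complex that activates the gelatinase MMP2. In biliary and other carcinomas these enzymes are studied for invasion and for the remodelling of the surrounding matrix. RNA levels say nothing of secretion, activation or inhibition of the proteins.

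The secreted enzymes other than MMP9 lie in the MMP gene cluster of chromosome 11. MMP7 (ENSG00000137673) lies at chr11:102520508-102530753, MMP10 (ENSG00000166670) at chr11:102770503-102780628, MMP1 (ENSG00000196611) at chr11:102789920-102798160, MMP3 (ENSG00000149968) at chr11:102835801-102843803 and MMP13 (ENSG00000137745) at chr11:102942995-102955734, all on the minus strand of GRCh38. These 5 genes span 435 kb, which hold 9 MMP genes in GENCODE release 29. MMP14 (ENSG00000157227) lies at chr14:22836557-22849027, MMP9 (ENSG00000100985) at chr20:46008908-46016561, TIMP1 (ENSG00000102265) at chrX:47582313-47586789, TIMP2 (ENSG00000035862) at chr17:78852977-78925387 and TIMP3 (ENSG00000100234) at chr22:32801701-32863043. All 10 are protein-coding. TIMP1 and TIMP3 lie within introns of the synapsin genes SYN1 and SYN3 on the other strand, with 0 bases of exon overlap. TIMP2 shares 198 exon bases with CEP295NL on its own strand, a gene with 1 to 27 counts per library.

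Promoters are shown because members of this cluster moved in opposite directions in OCUG-1. RefSeq (GRCh38.p14) promoter sequences were at hand for 5 members, MMP7, MMP10, MMP14, TIMP1 and TIMP3. The 250 bases before each start were searched on both strands for TGANTCA, the heptamer bound by AP-1 factors, for AGGAAG, a core bound by ETS factors, and for TATAAA. The lines below give the 110 bases upstream of the start, 5′ to 3′ on the minus strand, with the AP-1 heptamer in capitals; the MMP7 stretch is chr11:102530748-102530857 and the MMP10 stretch is chr11:102780629-102780738.
MMP7: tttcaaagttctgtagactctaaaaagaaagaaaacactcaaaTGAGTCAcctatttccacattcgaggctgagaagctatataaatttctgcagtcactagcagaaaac
MMP10: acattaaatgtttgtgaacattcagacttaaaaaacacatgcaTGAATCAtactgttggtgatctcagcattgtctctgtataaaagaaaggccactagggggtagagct
In both genes the heptamer began at -67 from the start. TGANTCA was present in 6.57% of all 35114 promoters of the same length and in none of the MMP14, TIMP1 and TIMP3 windows. AGGAAG was present in 28.7% of all promoters, and among the members it was found at -169 and -145 in MMP7 and at -87 in TIMP1. TATAAA was present in 10.7% of all promoters and began at -30 in MMP7 and -31 in MMP10. A match is a description of the letters and not a measured binding site.

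The coding sequences of the chromosome 11 members are alike, which bears on how their reads are told apart. The lines below give the 33 coding bases at the zinc-binding motif of the catalytic domain, from GENCODE 29 transcripts, with capitals where a base differs from MMP1.
MMP1: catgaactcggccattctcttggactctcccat
MMP3: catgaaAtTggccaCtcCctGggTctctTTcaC
MMP10: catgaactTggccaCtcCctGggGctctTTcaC
MMP7: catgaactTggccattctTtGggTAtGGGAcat
MMP13: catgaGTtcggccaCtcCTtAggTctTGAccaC
MMP10 differed from MMP1 at 8 of these bases, MMP3 and MMP7 at 9, and MMP13 at 11. Over the aligned coding sequences MMP3 and MMP10 were 85.2% identical and shared an exact run of 96 bases, so some of their reads may be uncertain between them. MMP1 was 70.1% identical to MMP3 and 67.3% to MMP10, and its longest run shared with any of the other 4 was 19 bases.

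HuCCT1 libraries held 18238834 to 30693736 counts each, and OCUG-1 libraries 14388855 to 24019011. Levels are CPM, read counts relative to a library total scaled by the trimmed mean of M values (TMM), given as mean ± SD over 3 libraries. Tests are edgeR's quasi-likelihood test with Benjamini-Hochberg adjustment over all 19576 genes tested in HuCCT1 or 20511 in OCUG-1; a gene is called at an adjusted p under 0.05, and a change is a log2 fold change ± SE. A floor of 3 counts is used for a gene at 0, and floors and intervals cover counting error only. Of the biliary epithelial markers KRT7, KRT8, KRT18, KRT19, EPCAM and CDH1, 6 of 6 averaged over 10 CPM in HuCCT1 and 5 of 6 in OCUG-1, where CDH1 averaged 2.02 CPM. Of 9 macrophage and neutrophil markers the highest averages were CD14 in HuCCT1 (2.70 CPM) and ITGAM in OCUG-1 (5.22 CPM), and of 5 endothelial markers they were ESAM (3.77 CPM) and PECAM1 (2.90 CPM). Among 7 fibroblast markers COL1A1 was highest, with an average of 23.4 CPM in HuCCT1 against 61.0 CPM in the other line. None of these marker genes averaged 0 in either line. In bulk RNA, fewer cells that express a gene and less of its RNA per cell cannot be told apart.

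Without drug the lines expressed different members. Levels between genes are compared as CPM per kb of exon. In HuCCT1 vehicle MMP7 (165 ± 43.0 CPM per kb) and TIMP1 (154 ± 32.6) were highest and did not differ beyond their spread, followed by TIMP2 (62.5 ± 4.74). MMP14 (17.0 ± 3.16 CPM per kb) and MMP1 (16.4 ± 3.40) came next, again within their spread of each other, and MMP13, MMP10, MMP3, MMP9 and TIMP3 were all below 1 CPM per kb. In OCUG-1 vehicle TIMP1 (368 ± 36.4 CPM per kb) led, followed by MMP1 (102 ± 20.0), MMP14 (93.6 ± 4.74) and TIMP2 (79.8 ± 13.4), of which neighbours overlapped in their spread. MMP7 stood at 4.97 ± 0.114 CPM per kb there.

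Vehicle-treated OCUG-1 was compared with vehicle-treated HuCCT1 in a fit of all 24 libraries, in which 68.3% of 22944 genes were called (35.6% higher, 32.7% lower) and 7 of the 9 members tested, 5 higher and 2 lower. MMP1 was higher in OCUG-1 (log2 fold change 2.46 ± 0.20, adjusted p = 2.86e-11), as were MMP14 (2.30 ± 0.16, adjusted p = 2.75e-13) and TIMP1 (1.09 ± 0.16, adjusted p = 6.62e-07). MMP7 was lower in OCUG-1 (-5.22 ± 0.29, adjusted p = 1.34e-12). TIMP3 was at 0 counts in all 12 HuCCT1 libraries, and its 1.07 ± 0.115 CPM in OCUG-1 vehicle was 8.11 times the HuCCT1 vehicle floor per library. MMP13 was at 0 in the 3 vehicle libraries of OCUG-1, and its 1.07 ± 0.231 CPM in HuCCT1 vehicle was 5.89 times the floor of those libraries. Both floors used library totals without TMM scaling. TIMP2 (0.19, adjusted p = 0.266) and MMP3 (0 to 5 counts, adjusted p = 0.37) were not called. MMP10, at 0.462 CPM in OCUG-1 and 0.121 CPM in HuCCT1, is among the 7 (1.81 ± 0.56, adjusted p = 0.00552), but this rests on 7 to 9 counts per library against 1 to 4. It entered the fit through treated OCUG-1 arms, and without vehicle replicate 1 of HuCCT1 its adjusted p was 0.0561. TIMP3 entered the fit through OCUG-1 alone and MMP13 through HuCCT1 alone, the lines where they were higher. The calls of TIMP3, MMP13 and MMP10 thus carry that selection. The number of members called is no result about them.

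**Figure D1:**
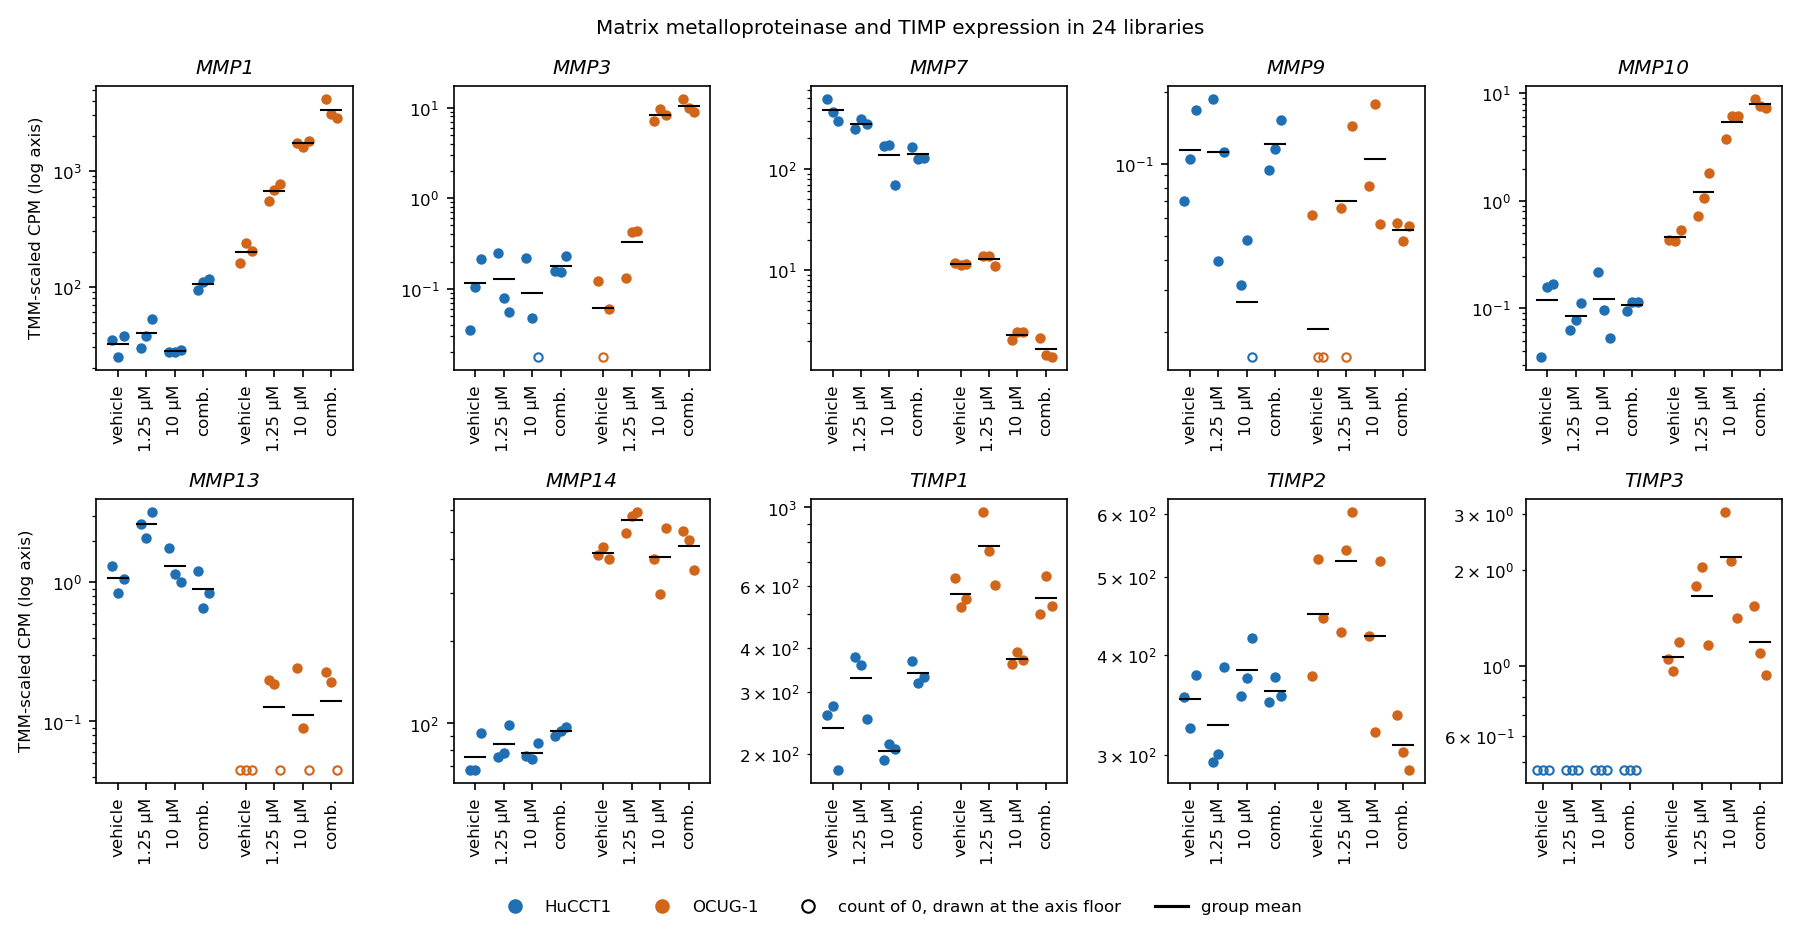
CPM of the 10 members in each of the 24 libraries on a log axis, 1 panel per gene, with the 4 arms of HuCCT1 and of OCUG-1 along the x axis, bars at the mean of 3 libraries and open symbols for a count of 0. MMP1 in OCUG-1 climbs from 159 to 237 CPM in vehicle to 2867 to 4169 CPM in the combination, while MMP7 is high in every HuCCT1 library and low in every OCUG-1 library.

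The interstitial collagenase MMP1, which opens the triple helix of fibrillar collagens, changed more in OCUG-1 than in HuCCT1. Its vehicle libraries held 159, 237 and 205 CPM, and those with 1.25 µM sorafenib 547, 690 and 777 CPM. At 10 µM sorafenib the values were 1751, 1613 and 1821 CPM, and in the combination 4169, 3078 and 2867 CPM. The 4 arms did not overlap in any library, and the order was vehicle, 1.25 µM, 10 µM, combination. Against vehicle, MMP1 rose at 1.25 µM by a log2 fold change of 1.74 ± 0.17 (adjusted p = 6.18e-06) and at 10 µM by 3.11 ± 0.17 (adjusted p = 1.08e-10). Adding IACS-010759 to 1.25 µM sorafenib raised it by a further 2.33 ± 0.17 (adjusted p = 3.5e-09), so that the combination stood 4.07 ± 0.18 above vehicle (adjusted p = 1e-11). These comparisons share arms and are not independent of each other. All of them were called with each library left out in turn.

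In HuCCT1 MMP1 lay lower and moved in 1 arm only among those tested against vehicle. Vehicle libraries held 34.6, 24.8 and 37.5 CPM, those with 1.25 µM sorafenib 29.5, 38.0 and 52.4 CPM, and those with 10 µM 27.4, 27.6 and 28.6 CPM. Vehicle overlapped both doses, the libraries at 10 µM lay just below those at 1.25 µM, and neither dose was called against vehicle (0.31 ± 0.18, adjusted p = 0.247, at 1.25 µM). The combination held 94.3, 110 and 116 CPM, above every other HuCCT1 library. Adding IACS-010759 to 1.25 µM sorafenib thus raised MMP1 by 1.41 ± 0.18 (adjusted p = 0.000133), and the combination was 1.72 ± 0.18 above vehicle (adjusted p = 1.17e-05). Between the 2 doses MMP1 was lower at 10 µM (-0.52, adjusted p = 0.0399), a call that ended without 1.25 µM replicate 3 (-0.28, adjusted p = 0.185), with library size scaling (-0.35, adjusted p = 0.202) and in 4 other settings with 1 library left out.

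The stromelysins MMP3 and MMP10, which degrade proteoglycans, laminin and fibronectin and can activate procollagenase, were near the limit of detection in HuCCT1 and in untreated OCUG-1. In OCUG-1 MMP3 had 2, 0 and 1 counts in vehicle and 2, 9 and 6 counts at 1.25 µM sorafenib. It had 174, 219 and 145 counts at 10 µM and 219, 207 and 161 counts in the combination, or 8.33 ± 1.35 and 10.4 ± 1.85 CPM. All 6 of the latter libraries lay above all 6 of the former. Per scaled read, the summed 538 counts at 10 µM against 3 in vehicle gave a ratio of 137 (95% exact interval 46.8 to 669), and the 587 counts of the combination a ratio of 172 (58.5 to 835). The edgeR test called MMP3 at 10 µM against vehicle (adjusted p = 2.23e-10) and in the combination against 1.25 µM (4.93 ± 0.32, adjusted p = 9.18e-10). The small difference at 1.25 µM, 17 counts against 3, a ratio of 5.58 (1.61 to 29.7), had an adjusted p of 0.0493 and lost its call when any of 5 libraries was left out.

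MMP10 in OCUG-1 held 0.431, 0.421 and 0.535 CPM in vehicle, 0.724, 1.07 and 1.81 CPM at 1.25 µM, 3.77, 6.19 and 6.22 CPM at 10 µM, and 8.88, 7.69 and 7.34 CPM in the combination. The 4 arms did not overlap and stood in the order seen for MMP1. Against vehicle it rose at 10 µM (3.52 ± 0.33, adjusted p = 4.32e-08), and adding IACS-010759 to 1.25 µM raised it by 2.75 ± 0.28 (adjusted p = 1.92e-07). The call at 1.25 µM (1.34 ± 0.39, adjusted p = 0.037) ended with any of 5 libraries left out. MMP3 and MMP10 passed the filter on low counts through the arms where they were high. In HuCCT1 neither passed: MMP3 had 0 to 7 counts and MMP10 1 to 7 counts in every one of the 12 libraries. WTAPP1, a pseudogene antisense to part of MMP1 and MMP3, was listed at 0 counts in all 24 libraries.

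The matrilysin MMP7, a small epithelial protease without the hemopexin domain of the others, was the member that fell against vehicle in both lines. In HuCCT1 it held 492, 367 and 294 CPM in vehicle, 250, 313 and 277 CPM at 1.25 µM sorafenib, 169, 172 and 70.0 CPM at 10 µM and 166, 124 and 127 CPM in the combination. All libraries at 10 µM and in the combination lay below all of vehicle and 1.25 µM, and replicate 3 at 10 µM lay lowest. MMP7 fell at 10 µM (-1.49 ± 0.29, adjusted p = 0.00303) and in the combination (-1.47 ± 0.29, adjusted p = 0.00423) against vehicle, and at 1.25 µM it was not called (-0.46 ± 0.29, adjusted p = 0.293). The combination was also below 1.25 µM (-1.01 ± 0.29, adjusted p = 0.042), but this call ended with each of the 6 libraries left out (adjusted p 0.0737 to 0.141), with library size scaling (-0.83, adjusted p = 0.0663) and without the filter on low counts (-0.96, adjusted p = 0.25).

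In OCUG-1 MMP7 held 11.8, 11.3 and 11.5 CPM in vehicle and 13.6, 13.7 and 11.1 CPM at 1.25 µM sorafenib. It held 2.03, 2.45 and 2.43 CPM at 10 µM and 2.11, 1.43 and 1.38 CPM in the combination. Vehicle and 1.25 µM overlapped, and the other arms lay far below both. The fall was -2.33 ± 0.18 at 10 µM against vehicle (adjusted p = 4.31e-09) and -2.97 ± 0.19 on adding IACS-010759 to 1.25 µM (adjusted p = 8.76e-10). MMP7 and MMP10 thus went opposite ways in this line. The part of the AP-1 heptamer in their promoter stretches was not tested, and no promoter sequence was at hand for MMP1 or MMP3.

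The collagenase MMP13 and the gelatinase MMP9 were low throughout. MMP13 in HuCCT1 held 1.31, 0.844 and 1.06 CPM in vehicle and 2.63, 2.09 and 3.20 CPM at 1.25 µM, which do not overlap. It held 1.76, 1.16 and 1.01 CPM at 10 µM and 1.20, 0.654 and 0.844 CPM in the combination, within or near the vehicle range. MMP13 rose at 1.25 µM (1.27 ± 0.31, adjusted p = 0.00985) and fell when IACS-010759 was added (-1.53 ± 0.31, adjusted p = 0.00495). In OCUG-1 its counts were 0 to 6 per library, with 0 in replicate 3 of every arm, and it was not tested there. MMP9 had 0 to 4 counts in each of the 24 libraries and was not tested in any comparison.

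MMP14, the membrane-type collagenase that also activates MMP2, showed no called change against vehicle in either line. In HuCCT1 its 12 libraries ranged from 67.4 to 99.1 CPM. The combination against vehicle (0.31, adjusted p = 0.11) was called without vehicle replicate 3 (0.47, adjusted p = 0.0138) and without replicate 3 of every arm (0.45, adjusted p = 8.74e-05). In OCUG-1 it held 413, 441 and 400 CPM in vehicle and 497, 572 and 591 CPM at 1.25 µM, which do not overlap but were not called (0.41, adjusted p = 0.106); without the filter on low counts they were (0.44, adjusted p = 0.00339). At 10 µM it held 399, 297 and 516 CPM and in the combination 503, 466 and 363 CPM, a wider spread across both other arms. The only call was 10 µM against 1.25 µM in OCUG-1 (-0.45, adjusted p = 0.0196), which ended without 10 µM replicate 2 (-0.30, adjusted p = 0.0845) and without 3 other libraries.

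TIMP1, a secreted inhibitor of most MMPs with weak action on MMP14, was the most abundant inhibitor per kb in all 8 groups. In OCUG-1 it held 630, 522 and 549 CPM in vehicle, 970, 754 and 603 CPM at 1.25 µM, 361, 391 and 369 CPM at 10 µM and 499, 639 and 525 CPM in the combination. The libraries at 10 µM lay below all others (-1.05 against 1.25 µM, adjusted p = 4.87e-06), and the combination overlapped vehicle. TIMP1 fell at 10 µM (-0.60 ± 0.14, adjusted p = 0.00123) and was unlike MMP1 in the combination, where it differed from vehicle by -0.03 (adjusted p = 0.86). Its fall on adding IACS-010759 (-0.48 ± 0.14, adjusted p = 0.00709) ended without 1.25 µM replicate 1 (-0.30, adjusted p = 0.0581). The rise at 1.25 µM (0.45 ± 0.14, adjusted p = 0.0485) ended with library size scaling (0.36, adjusted p = 0.0875) and when any of 5 libraries was left out.

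In HuCCT1 TIMP1 held 258, 274 and 180 CPM in vehicle, 378, 357 and 251 CPM at 1.25 µM, 193, 214 and 207 CPM at 10 µM and 367, 318 and 332 CPM in the combination. Vehicle overlapped the 1.25 µM and 10 µM arms, and the combination lay above all vehicle libraries. The call at 1.25 µM (0.47 ± 0.16, adjusted p = 0.0479) ended with library size scaling (0.32, adjusted p = 0.13) and without any of 4 libraries, and that of the combination against vehicle (0.51 ± 0.16, adjusted p = 0.0302) ended without any of 5. TIMP1 was lower at 10 µM than at 1.25 µM (-0.68, adjusted p = 0.00462), a call kept with each library left out. The share of counts from mitochondrial genes was 10.97 ± 3.56% in vehicle, 17.9 ± 4.83% at 1.25 µM, 9.88 ± 1.63% at 10 µM and 11.4 ± 1.08% in the combination. With scaling that left those genes out, TIMP1 at 1.25 µM differed from vehicle by 0.47 (adjusted p = 0.0494). That scaling moved the median of all genes by only 0.0012 in this comparison, so it could hardly change the value. The part of the mitochondrial share in the TIMP1 values was not tested.

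TIMP2, which inhibits MMPs and with MMP14 presents pro-MMP2, held 294 to 421 CPM in all HuCCT1 libraries and was not called there. At 10 µM against 1.25 µM (0.23, adjusted p = 0.151) it was called with library size scaling (0.40, adjusted p = 0.0311), without 1.25 µM replicate 3 (0.37, adjusted p = 0.0166) and without replicate 3 of every arm (0.31, adjusted p = 0.00506). In the last setting the combination against 1.25 µM was also called (0.30, adjusted p = 0.00995). In OCUG-1 it held 377, 527 and 445 CPM in vehicle, 427, 541 and 603 CPM at 1.25 µM, 422, 321 and 524 CPM at 10 µM and 336, 302 and 287 CPM in the combination. The combination lay below all vehicle and 1.25 µM libraries. Adding IACS-010759 lowered TIMP2 (-0.76 ± 0.17, adjusted p = 0.000854). Against vehicle the combination was lower by -0.54 ± 0.17 (adjusted p = 0.00966), which ended without vehicle replicate 2 (-0.42, adjusted p = 0.0533). TIMP3, the matrix-bound inhibitor, held 1.05, 0.961 and 1.19 CPM in OCUG-1 vehicle and 3.04, 2.14 and 1.41 CPM at 10 µM (1.05 ± 0.34, adjusted p = 0.0113), and without 10 µM replicate 1 the adjusted p was 0.0906. Its 1.25 µM and combination arms were not called against vehicle (0.66 and 0.15).

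**Figure D2:**
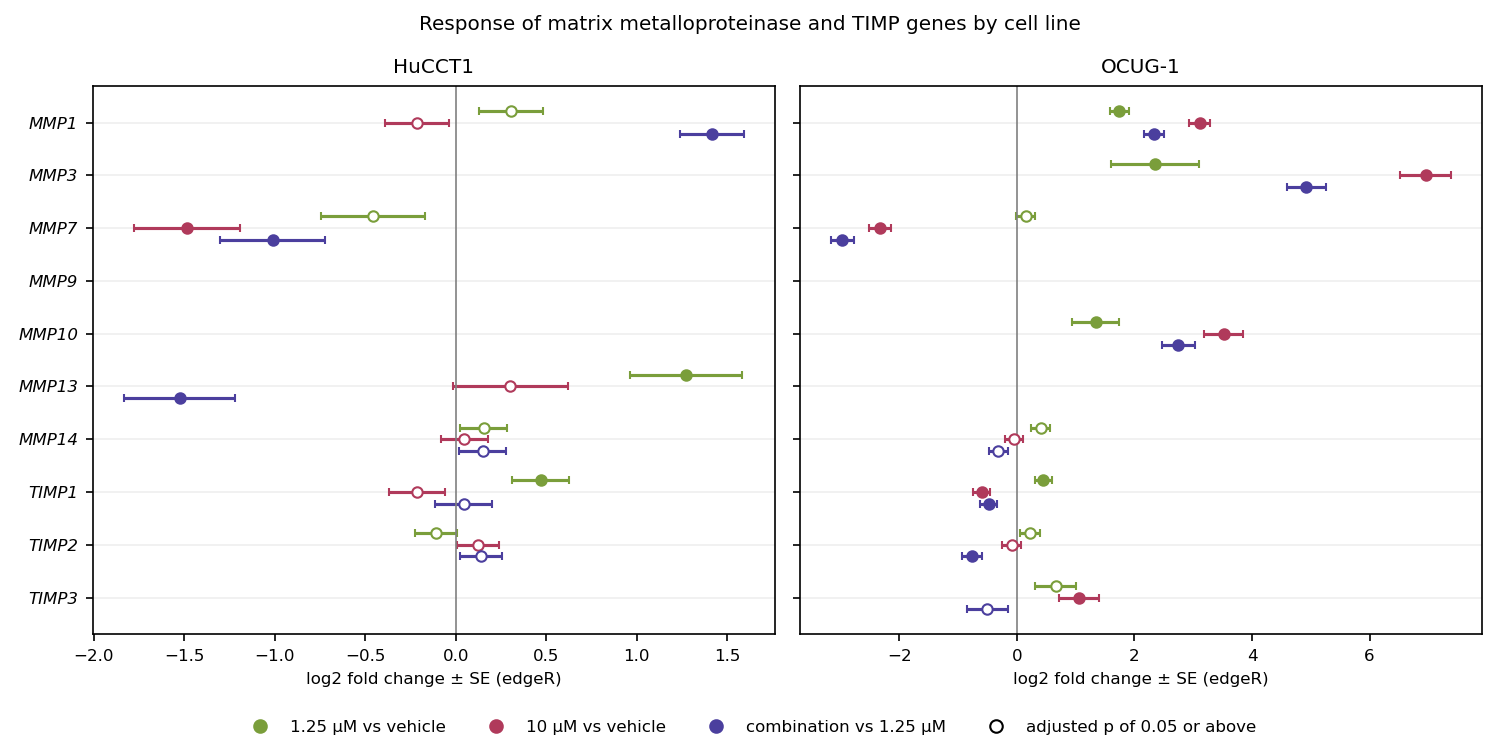
Log2 fold changes with SE of the members tested in each line for 1.25 µM and 10 µM sorafenib against vehicle and for the combination against 1.25 µM, with open symbols where the adjusted p was 0.05 or more; the x axes of the panels differ. In OCUG-1 MMP1, MMP3 and MMP10 lie to the right and MMP7 to the left at 10 µM and in the combination, and MMP14 and TIMP2 lie near 0 at 10 µM.

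The calls stand beside those of all genes as follows. In HuCCT1 at 1.25 µM sorafenib 18.5% of genes were called against vehicle (9.98% higher, 8.5% lower), and 2 of the 6 members tested were higher and 0 lower, with a median change of 0.23 over these 6 against 0.00 over all genes. At 10 µM 24.2% of genes were called (13% higher, 11.2% lower), and 1 of 6 members was lower. On adding IACS-010759 11.6% were called (5.06% higher, 6.57% lower), with 1 of 6 members higher and 2 lower. The combination against vehicle had 20.1% called (9.94% higher, 10.1% lower), with 2 members higher and 1 lower. Between the doses 28.2% of genes were called (14.4% higher, 13.7% lower at 10 µM) and 4 of 6 members were lower at 10 µM. Besides MMP1 and TIMP1 these were MMP7 (-1.03, adjusted p = 0.0197) and MMP13 (-0.97, adjusted p = 0.024), which lost the call with 2 and 4 of the 6 libraries left out in turn, and MMP7 also without the filter (-1.01, adjusted p = 0.151).

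OCUG-1 responded far more widely at 10 µM and in the combination. At 1.25 µM 10.5% of genes were called (5.92% higher, 4.61% lower) and 4 of the 8 members tested, all higher, with a median change of 0.55 over these 8 against -0.03 over all genes. MMP3 and MMP10 are among the 4 and had passed the filter only through the other treated arms, and with 1 library left out 1 to 3 members were called. At 10 µM against vehicle 63.1% of genes were called (32.4% higher, 30.7% lower) and 6 of 8 members, 4 higher and 2 lower. Adding IACS-010759 gave 58.1% called (31.4% higher, 26.7% lower) and 6 of 8 members, 3 higher and 3 lower. The combination against vehicle gave 59.5% called (31.5% higher, 28.1% lower) and 5 of 8 members, 3 higher and 2 lower. At 10 µM against 1.25 µM 60.5% were called (31.6% higher, 29% lower) and 6 of 8 members, 3 higher and 3 lower. In the last 4 comparisons the members' share was near that of all genes, so the number of members called is no result about them; their sizes are given above.

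Enzyme and inhibitor RNA were summed per kb over the 7 MMPs and the 3 TIMPs, a description that weighs every transcript alike. In OCUG-1 the MMP sum was 201 ± 23.0 CPM per kb in vehicle, 471 ± 69.6 at 1.25 µM, 976 ± 77.2 at 10 µM and 1821 ± 369 in the combination. The TIMP sum was 448 ± 24.2, 597 ± 104, 318 ± 13.0 and 415 ± 46.7 CPM per kb in the same order. The share of MMPs in the total of both was thus 30.9 ± 3.46% in vehicle, 44.3 ± 7.92% at 1.25 µM, 75.4 ± 1.02% at 10 µM and 81.1 ± 3.79% in the combination. MMP1 alone made up 50.4% of the MMP sum in vehicle and 93.9% in the combination.

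In HuCCT1 the share of MMPs went the other way, from 47.7 ± 3.69% in vehicle to 37.3 ± 5.07% at 1.25 µM, 30.996 ± 6.62% at 10 µM and 32.3 ± 0.482% in the combination. The MMP sum was 199 ± 40.7 CPM per kb in vehicle and 91.2 ± 23.6 at 10 µM, where MMP7 had fallen. In the combination it was 135 ± 4.59 CPM per kb, of which MMP1 made up 40.1%, against 8.45% in vehicle. The order by level also turned: MMP1 led TIMP1 in OCUG-1 at 10 µM (877 ± 53.8 against 242 ± 9.93 CPM per kb) and in the combination (1711 ± 355 against 360 ± 48.2), and TIMP1 led in the 3 treated HuCCT1 arms. In the HuCCT1 combination TIMP2 (64.0 ± 2.43 CPM per kb), MMP7 (59.8 ± 9.95) and MMP1 (54.1 ± 5.63) were neighbours within their spread.

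**Figure D3:**
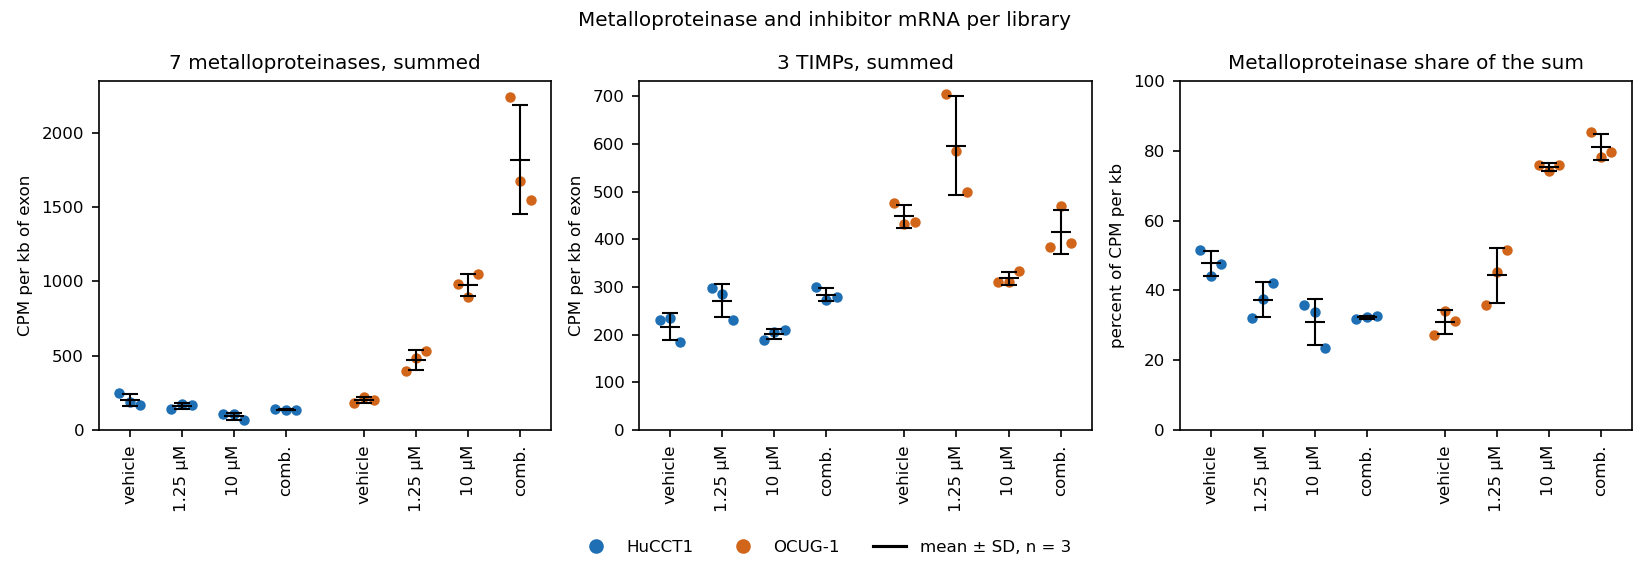
Summed CPM per kb of the 7 MMPs, of the 3 TIMPs, and the MMP share of both in percent, for the 4 arms of each line, as points per library with mean ± SD of 3. The OCUG-1 share climbs from 30.9% in vehicle to 81.1% in the combination, and the HuCCT1 share goes from 47.7% to 32.3%.

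Whether the lines differed in their response was tested as an interaction in the fit of all 24 libraries, given as the OCUG-1 change minus the HuCCT1 change. It covers 8 of the 9 members in that fit, as TIMP3 was at 0 counts in all HuCCT1 libraries and was left out. MMP1, MMP7, MMP14, TIMP1 and TIMP2 had passed the filter in each line, while MMP3 and MMP10 entered through OCUG-1 alone and MMP13 through HuCCT1 alone. At 1.25 µM 9.65% of genes were called (4.96% higher, 4.69% lower) and 1 of 8 members, MMP1, whose change was larger in OCUG-1 by 1.47 ± 0.26 (adjusted p = 0.000886). At 10 µM 43.8% of genes were called (20.7% higher, 23.1% lower) and 3 of 8 members. These were MMP1 (3.25 ± 0.27, adjusted p = 5.35e-10), MMP3 (6.94 ± 1.17, adjusted p = 1.66e-05) and MMP10 (3.19 ± 0.82, adjusted p = 0.00224). MMP3 and MMP10 are in the fit only through OCUG-1 arms where they are high, so their p-values carry that selection. The number of members called is no result about them. The difference for MMP7 at 10 µM was not called (-0.92 ± 0.40, adjusted p = 0.0701), but it was called by DESeq2 (-0.86, adjusted p = 0.0326), without 10 µM replicate 3 of HuCCT1 (-1.23, adjusted p = 0.000227) and without vehicle replicate 1 of HuCCT1 (-1.14, adjusted p = 0.0251).

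For IACS-010759 added to 1.25 µM sorafenib 38.8% of genes were called (18.6% higher, 20.2% lower) and 7 of 8 members, 3 higher and 4 lower. MMP7 fell more in OCUG-1 (-2.08 ± 0.42, adjusted p = 0.000516), TIMP2 differed by -1.02 ± 0.21 (adjusted p = 0.000266) and MMP3 by 4.25 ± 1.00 (adjusted p = 0.00113), and these calls held with each library left out. The differences of MMP1 (0.80 ± 0.26, adjusted p = 0.0172), MMP10 (2.30 ± 0.92, adjusted p = 0.0483), MMP14 (-0.58 ± 0.22, adjusted p = 0.0328) and TIMP1 (-0.65 ± 0.22, adjusted p = 0.0211) each lost the call with some library left out, MMP1 and TIMP1 for 3 of 12 libraries, MMP14 for 8 and MMP10 for 11. The values of MMP3 and MMP10 rest on HuCCT1 libraries with at most 7 counts. Both genes are in the fit only through OCUG-1 arms where they are high, the combination among them. Their p-values carry that selection, and for MMP3 this also holds with each library left out. As both are counted among the 7, the number of members called is no result about them.

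**Figure D4:**
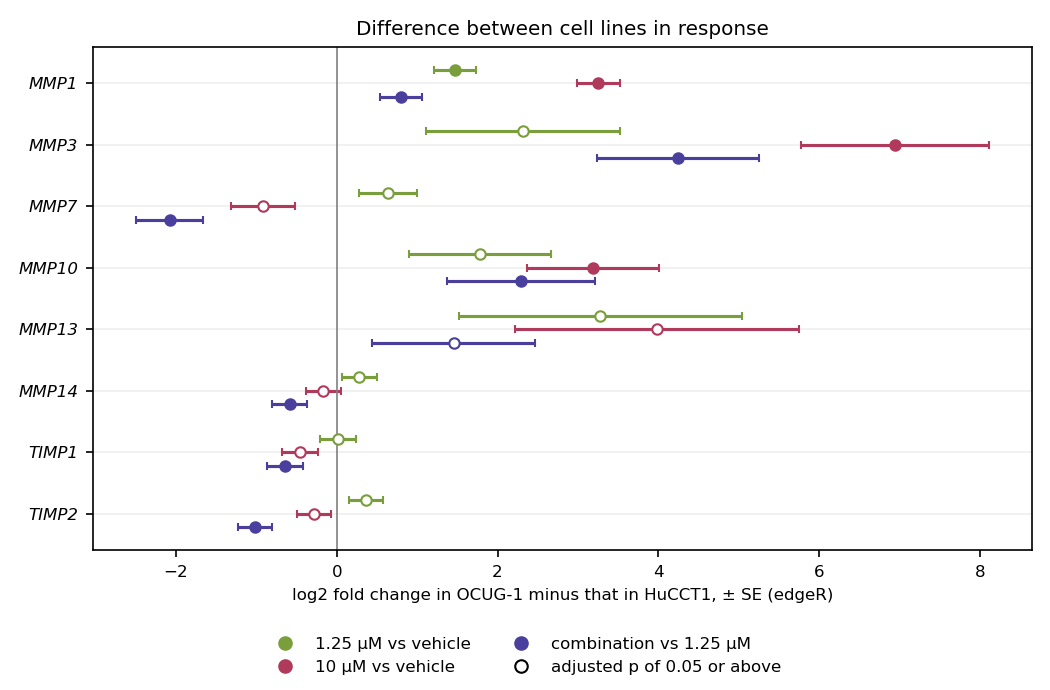
Difference between the lines in log2 fold change (OCUG-1 minus HuCCT1) with SE, for 1.25 µM sorafenib, 10 µM sorafenib and added IACS-010759, with open symbols where the adjusted p was 0.05 or more. MMP1 lies right of 0 in all 3 comparisons, by 1.47, 3.25 and 0.80, and TIMP2 lies left of 0 for IACS-010759.

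Other proteases and inhibitors of the same system moved in both directions in OCUG-1. At 10 µM 32.4% of all genes rose and 30.7% fell. Of 10 other MMP genes tested, 2 rose and 5 fell. The membrane-type MMP15 fell from 208 ± 10.4 to 58.0 ± 20.1 CPM (-1.85 ± 0.20, adjusted p = 9.64e-07), and MMP17 (-1.04) and MMP11 (-1.24) also fell. MMP2, the gelatinase that MMP14 activates, rose from 0.543 to 2.14 CPM (1.96 ± 0.37, adjusted p = 0.000159). Of 4 other inhibitors tested 3 rose and 1 fell. TIMP4 rose (1.22 ± 0.35, adjusted p = 0.00782), and RECK, a membrane-anchored MMP inhibitor, fell by -0.50 at 10 µM and by -1.43 ± 0.14 on adding IACS-010759 (adjusted p = 1.35e-07). Of 13 ADAM and ADAMTS proteases 2 rose and 5 fell at 10 µM.

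The activation cascade includes the plasminogen system, whose product plasmin can activate pro-MMPs. Of its 14 genes tested in OCUG-1 5 rose and 5 fell at 10 µM against vehicle, near the shares of all genes (32.4% and 30.7%). PLAUR, the urokinase receptor, rose from 56.4 ± 1.16 to 169 ± 16.9 CPM (1.58 ± 0.11, adjusted p = 5.55e-10), and PLAU, urokinase itself, from 21.1 ± 1.76 to 60.3 ± 4.46 CPM (1.52 ± 0.11). PLAT, tissue plasminogen activator, fell from 641 ± 13.3 to 110 ± 25.4 CPM (-2.54 ± 0.16, adjusted p = 5.24e-10). PLAU was already higher at 1.25 µM (1.40 ± 0.12, adjusted p = 1.03e-06) and was not called on adding IACS-010759 (-0.13, adjusted p = 0.313).

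Regulators known to act on MMP promoters, the AP-1, ETS and RUNX factors, counted 8 rises and 6 falls of 18 genes in OCUG-1 at 10 µM. There 32.4% of all genes rose and 30.7% fell. On adding IACS-010759 they counted 7 and 7, where 31.4% of all genes rose and 26.7% fell. ETS1 rose from 33.5 ± 3.75 to 158 ± 10.7 CPM at 10 µM (2.23 ± 0.12, adjusted p = 4.5e-11), and EHF, an epithelial ETS factor, fell from 49.2 ± 3.20 to 5.61 ± 0.866 CPM (-3.14 ± 0.15, adjusted p = 1.4e-11). ETV5 rose at 1.25 µM (1.63 ± 0.11), at 10 µM (2.39 ± 0.11) and further on adding IACS-010759 (0.88 ± 0.10). Of the AP-1 subunits, singled out after their values were seen, FOSL1 rose from 90.1 to 370 CPM at 10 µM (2.04 ± 0.14, adjusted p = 6.73e-10) and FOS fell from 728 to 205 CPM (-1.83 ± 0.22, adjusted p = 3.77e-06).

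Genes that report the output of the MAPK pathway, which lies downstream of RAF, counted 7 rises and 0 falls of 13 at 1.25 µM in OCUG-1, where 5.92% of all genes rose, and 9 rises and 2 falls at 10 µM. At 10 µM 32.4% of all genes rose and 30.7% fell. The median change of these MAPK genes at 10 µM was 1.32 against 0.00 over all genes. HBEGF, an EGF receptor ligand, rose from 6.80 ± 0.558 to 174 ± 55.7 CPM (4.68 ± 0.29, adjusted p = 1.13e-08), and PHLDA1 from 40.7 ± 1.88 to 125 ± 8.55 CPM (1.62 ± 0.09). In HuCCT1 3 of 14 rose, among them DUSP6 (0.78 ± 0.17), and 1 fell at 1.25 µM, where 9.98% of all genes rose and 8.5% fell. At 10 µM 1 of 14 rose, against 13% of all genes. Of 15 genes of inflammatory signalling, inducers and inhibitors alike, 7 rose and 3 fell in OCUG-1 at 10 µM, against 32.4% and 30.7% of all genes. The cytokine IL11 rose from 1.15 to 13.2 CPM (3.51 ± 0.23) and IL1A from 2.81 to 14.1 CPM (2.32 ± 0.18), while NFKBIA fell (-1.17 ± 0.14). In HuCCT1 0 of the 15 rose at 10 µM and 7 fell, against 13% and 11.2% of all genes, and CXCL8 fell from 93.4 to 39.5 CPM in the combination against vehicle (-1.24 ± 0.15).

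Matrix genes on which these enzymes act counted 4 rises and 11 falls of 21 in OCUG-1 at 10 µM, with a median change of -0.49. There 32.4% of all genes rose and 30.7% fell. On adding IACS-010759 they counted 7 rises and 13 falls, where 31.4% of all genes rose and 26.7% fell. FN1, fibronectin, fell from 4865 ± 607 to 1413 ± 273 CPM (-1.78 ± 0.15, adjusted p = 1.2e-08) and COL1A1 from 92.9 ± 8.44 to 29.8 ± 4.24 CPM (-1.64 ± 0.13). TNC, tenascin-C, rose from 2.76 to 19.8 CPM (2.84 ± 0.20). In HuCCT1 6 of 18 rose, among them LAMA3 (0.67 ± 0.10), and 1 fell on adding IACS-010759, where 5.06% of all genes rose and 6.57% fell.

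Markers of cell type moved in the same OCUG-1 arms. The summed level of the 6 biliary markers was 4687 to 5542 CPM in vehicle, 5887 to 7576 CPM at 1.25 µM, 1132 to 1429 CPM at 10 µM and 1407 to 1649 CPM in the combination. On adding IACS-010759 5 of 6 fell, where 31.4% of all genes rose and 26.7% fell. The 7 fibroblast markers summed to 147 to 168 CPM in vehicle, 181 to 204 CPM at 1.25 µM, 67.1 to 107 CPM at 10 µM and 54.7 to 71.5 CPM in the combination, with COL1A2 at 0.127 CPM on average over the line. The 9 macrophage and neutrophil markers summed to 9.93 to 15.9 CPM in all OCUG-1 libraries, with MPO near 0 in all arms. In HuCCT1 the biliary sum was 9028 to 10793 CPM in vehicle, 10584 to 12359 CPM at 1.25 µM, 6973 to 9552 CPM at 10 µM and 9312 to 9860 CPM in the combination. Of the 6 markers 4 rose and 1 fell at 1.25 µM against vehicle, against 9.98% and 8.5% of all genes. At 10 µM 4 were lower than at 1.25 µM, against 13.7% of all genes. The part of these shifts in the MMP values was not tested.

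Genes with the pattern most like a member's were ranked by Pearson's correlation of log2 CPM over the 12 libraries of a line, as a description of libraries that share arms. In OCUG-1 MMP1 was followed most closely by ADORA2B (0.993), RGS4 (0.993) and EIF6 (0.991), and MMP3 by NXT1 (0.994), NRROS (0.990) and PLAUR (0.989). MMP7 was followed there by the mitotic genes CDC25C (0.994), KNL1 (0.992) and KIF11 (0.992), and MMP14 by ITGA5 (0.963), SDC1 (0.954) and CD276 (0.922). TIMP1 was followed by MICOS13 (0.987), CCDC12 (0.968) and HECTD3 (0.956), and TIMP2 by GOLM1 (0.976) and HIBADH (0.976). In HuCCT1 MMP1 was followed by XYLT2 (0.950), GPRC5A (0.935) and EPHX1 (0.933), MMP7 by SETD6 (0.971), PIGM (0.968) and NXF1 (0.961), and TIMP1 by the mitochondrial transfer RNA gene MT-TP (0.996), MRPL21 (0.965) and RPL24 (0.961).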

How the data were processed

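RNA of 24 libraries was sequenced as paired reads of TruSeq mRNA libraries, per the labels' protocols. For each line the authors deposited 1 table of raw, unscaled read counts by Ensembl gene ID. The submitters' processing notes name fastp 1.3.2, HISAT2 2.2.2, featureCounts of Subread 2.1.1, DESeq2 1.42.1, R 4.4.1 and GRCh38. Which annotation release, strand setting and rule for multi-mapping reads were used is not given in the sources used here. The labels report extra runs pooled for 4 unnamed OCUG-1 libraries.

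The members and lists were chosen with earlier results of these data known. All 10 members were described whatever their values, and of each other list up to 4 called genes per line with the smallest p were eligible by name. Counts were scaled by TMM, filtered with filterByExpr at a minimum count of 10 and tested with edgeR 4.0.16 in R 4.3.3 by robust quasi-likelihood F tests, two-sided, in 1 fit of 12 libraries per line and 1 of 24 libraries between lines. A call needed a p under 0.05 after Benjamini-Hochberg adjustment over every gene tested. SEs were derived from the F statistic, and the steps were tested on simulated data. Exon length came from GENCODE 29, which held 57302 of the 78724 IDs. The alternatives were library size scaling, scaling without mitochondrial genes, DESeq2 1.42.0, no filter, only the groups compared, the replicate number as a block, and leaving out each library. Replicates are independent biological replicates per the labels. Of the genes eligible by name, 2 are not reported here.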

Additional observations from a re-analysis of the deposited data

Results flagged for a closer look

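The response of a member differed between the lines, by the interaction test of edgeR over 22944 genes, in 11 results, each given as the OCUG-1 log2 fold change minus that of HuCCT1. MMP1 differed by 1.47 at 1.25 µM sorafenib, by 3.25 at 10 µM and by 0.80 for IACS-010759 added to 1.25 µM. MMP3 differed by 6.94 at 10 µM and by 4.25 for IACS-010759, and MMP10 by 3.19 and 2.30, all from HuCCT1 libraries with at most 7 counts. Both genes had passed the filter only through treated OCUG-1 arms where they were high. For IACS-010759 MMP7 differed by -2.08, MMP14 by -0.58, TIMP1 by -0.65 and TIMP2 by -1.02. No group held enough libraries, at 3 each, to look for a library far from the others.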

How the results depend on the processing

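Of 1406 member values under an alternative, 1265 kept direction and side of the threshold, 93 lost and 25 gained a call, and 23 changed sign. For the number of members called, HuCCT1 at 1.25 µM sorafenib against vehicle went from 2 to 1 with library size scaling and with only the groups compared, and OCUG-1 at 1.25 µM from 4 to 2 with both of these and with the replicate block. The replicate block also took the line difference at 10 µM from 3 to 5, the added members being MMP7 (-0.89) and MMP13, for which OCUG-1 vehicle is at 0 counts and no fold is given. It also called MMP14 in the HuCCT1 combination against vehicle (0.32, adjusted p = 0.025). Whether same-numbered libraries pair is not settled. In HuCCT1 correlations of their deviations had a median of 0.0505, against -0.0236 for other pairs, and 6 of 12 libraries correlated best with their own number. In OCUG-1 the medians were -0.0295 and 0.00972, and it was 3 of 12 libraries. The replicate block took the genes called at 1.25 µM against vehicle from 3616 to 4295 in HuCCT1 and from 2160 to 1520 in OCUG-1. An alternative chosen after seeing the data left replicate 3 of every HuCCT1 arm out, giving 2 members called at 10 µM against vehicle and 5 for the combination against 1.25 µM.

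With each library left out in turn the number of members called was 1 to 2 for HuCCT1 at 1.25 µM, 1 at 10 µM, 2 for the combination against 1.25 µM, 2 to 3 for the combination against vehicle and 2 to 3 for 10 µM against 1.25 µM. For OCUG-1 it was 1 to 3, 5 to 6, 5 to 7, 4 to 5 and 5 to 7 in the same order. Between vehicle arms it was 6 to 7, and for the line differences 1 at 1.25 µM, 3 to 4 at 10 µM and 4 to 6 for IACS-010759.

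Every value that changed sign was uncalled. Library size scaling moved the median of all genes by -0.14 in HuCCT1 at 1.25 µM, 0.19 for the HuCCT1 combination against 1.25 µM, 0.18 for HuCCT1 10 µM against 1.25 µM, 0.15 for the OCUG-1 combination against 1.25 µM, 0.12 for OCUG-1 10 µM against 1.25 µM and 0.15 between vehicle arms. Under it MMP14 in HuCCT1 at 10 µM against 1.25 µM became 0.062 and TIMP1 in the OCUG-1 combination against vehicle 0.025. Without replicate 3 of every HuCCT1 arm TIMP1 for the combination against 1.25 µM became -0.091. With 1 library left out, sign changes occurred in these ranges. In HuCCT1, MMP14 ran from -0.030 to 0.21 at 10 µM against vehicle and from -0.18 to 0.023 at 10 µM against 1.25 µM, TIMP2 from -0.024 to 0.086 for the combination against vehicle, and TIMP1 from -0.12 to 0.16 for the combination against 1.25 µM. In OCUG-1 at 10 µM against vehicle MMP14 ran from -0.26 to 0.13 and TIMP2 from -0.27 to 0.072. For the OCUG-1 combination against vehicle MMP14 ran from -0.050 to 0.19, TIMP1 from -0.14 to 0.045 and TIMP3 from -0.10 to 0.28. Line differences ran from -0.16 to 0.19 for TIMP1 at 1.25 µM and from -0.38 to 0.033 for MMP14 at 10 µM. The cause was not tested. Depth limits MMP9, MMP13, TIMP3 and, outside treated OCUG-1, MMP3 and MMP10.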
